A study of Mus musculus with 25 samples.

Results

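Genes that encode sensors of RNA and DNA, and enzymes that act on double-stranded RNA, were followed across 25 mouse melanomas. The 10 genes were Ddx58, Ifih1, Dhx58, Tlr3, Tlr7, Tlr9, Zbp1, Aim2, Adar and Eif2ak2, chosen by their symbols from the 55450 genes of the count table, and all 10 passed the filter on low counts. The tumours were grown in C57BL/6 mice from B2905 cells, a mouse melanoma line also called M4. All groups shared this line and strain. Antibody was given at 10 mg/kg, in 2 doses per week for 2 weeks, from an average tumour size of 75 mm3. Of 40 implanted mice, 30 received anti-CTLA-4, which blocks a receptor that restrains T cells, 5 received isotype-matched IgG2b, and 5 untreated mice were not analysed here. Outcome under anti-CTLA-4 was assigned 10 to 11 days after the last dose. The tumours that shrank are called responders (n = 8), those that kept their size stable (n = 6), those that grew non-responders (n = 6), and the IgG2b tumours controls (n = 5). The outcome groups together hold fewer tumours than the 30 mice given anti-CTLA-4, so their sizes do not give the outcomes of the whole arm. Age, sex and further genotype of the mice are not stated in the labels. Each tumour was 1 bulk RNA library, in which fewer cells of a type and less RNA per cell cannot be told apart.

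Cells read foreign or misplaced nucleic acid through several families of receptor. RIG-I (Ddx58) and MDA5 (Ifih1) are cytosolic helicases that bind double-stranded RNA and signal through the adaptor Mavs, and LGP2 (Dhx58) is a related helicase without the signalling domains. Tlr3, Tlr7 and Tlr9 sit in endosomes and bind double-stranded RNA, single-stranded RNA and DNA, respectively. Zbp1 binds Z-form nucleic acid and can start cell death through Ripk3, and Aim2 binds cytosolic DNA and assembles an inflammasome. Adar edits adenosine in double-stranded RNA, which limits MDA5 signalling, and PKR (Eif2ak2) is a kinase that stops translation on double-stranded RNA. Many of these genes are themselves induced by interferon, and Tlr7 and Tlr9 are known mainly from myeloid cells and B cells.

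Interferon acts on many promoters through a short element, the interferon-stimulated response element. Promoter windows of 300 bases, 250 before and 50 after each start site, from RefSeq on GRCm38.p6, matched 7 of the 10 genes. No window was matched for Dhx58, Tlr7 and Zbp1. The core GAAANNGAAA, searched on both strands, was present in the windows of 3 genes, Ddx58, Ifih1 and Eif2ak2. Repeats of GAAA with another spacing, such as a run in a window of Adar, were not counted. It was present in 3.44% of the 32851 windows of all genes, or in 3.99% of 27025 genes. The 3 genes with the core were among the 5 that were lower in responders than in non-responders. Tlr3, also among the 5, had a window without the core. Whether the match bears on the levels was not tested. The stretch of 30 bases that holds each match is shown on the gene's strand, with the match in capitals.
Ddx58, chr4:40239804-40239833, minus strand: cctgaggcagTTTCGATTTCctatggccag
Ifih1, chr2:62646206-62646235, minus strand: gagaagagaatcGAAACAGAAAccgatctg
Eif2ak2, chr17:78882535-78882564, minus strand: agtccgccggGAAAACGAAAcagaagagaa
Each match lay in an annotated exon (GENCODE M21), after the start site of the window, and in Ddx58 and Eif2ak2 in untranslated sequence. Its first base was at position 3 in Ddx58, where the match read on the other strand, at 33 in Ifih1 and at 19 in Eif2ak2. A second core, TTCNNNGAA, which is read by factors downstream of interferon gamma, was in windows of Adar and Eif2ak2, against 9.55% of all genes. These are matches of letters, not sites shown to be bound.

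The libraries differed in depth and composition. Total counts ran from 8.76 to 34.3 M. Protein-coding genes held 82.9 to 89.2% of counts in the control, non-responder and stable tumours. In responders that share ran from 23.8% in responder 1 to 87.0% in responder 5, and 7 of 8 responders lay below every tumour of the other groups. Responders 1 and 4 had the lowest shares, at 23.8% and 54.2%, and values without them are given below. The number that opens each sample's name in the deposited data ran by group. Whether it gives an order of processing is not stated, so any such order and group cannot be told apart. The markers of the implanted line also moved with group. The summed level of 7 melanocyte markers was 10504 to 17110 CPM (counts per M counts of the library after TMM scaling) in controls. It was 723 to 13868 CPM in the tumours that grew, 227 to 504 CPM in those that kept their size and 303 to 722 CPM in those that shrank. All 7 melanocyte markers had counts in every group. Summed macrophage and monocyte markers (8 genes) were 529 to 895 CPM in controls and 893 to 2640 CPM in responders. Stable tumours had 1895 to 2972 CPM, and non-responders 698 to 2119 CPM. Summed T cell markers (7 genes) were 8.52 to 24.6 CPM in controls, 131 to 203 CPM in stable tumours and 80.1 to 225 CPM in responders. Non-responders had 21.4 to 174 CPM. All macrophage and T cell markers had counts in every group. Their part in the results below was not tested.

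All 10 sensor genes differed between the 4 groups in edgeR's quasi-likelihood test at an adjusted p under 0.05 (Benjamini-Hochberg), where 71.7% of the 18031 genes tested did so. The highest of the 10 adjusted p values was 0.00721, for Ddx58. A gene past that threshold is called higher or lower below, and log2 fold changes are given ± their SE. The groups fell into patterns rather than 1 common order. The helicases and Eif2ak2 were highest in some non-responder or stable tumours and low in responders, Tlr3 was lowest in responders, Tlr7 was highest in stable tumours, and Aim2 was highest in responders and stable tumours.

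**Figure D1:**
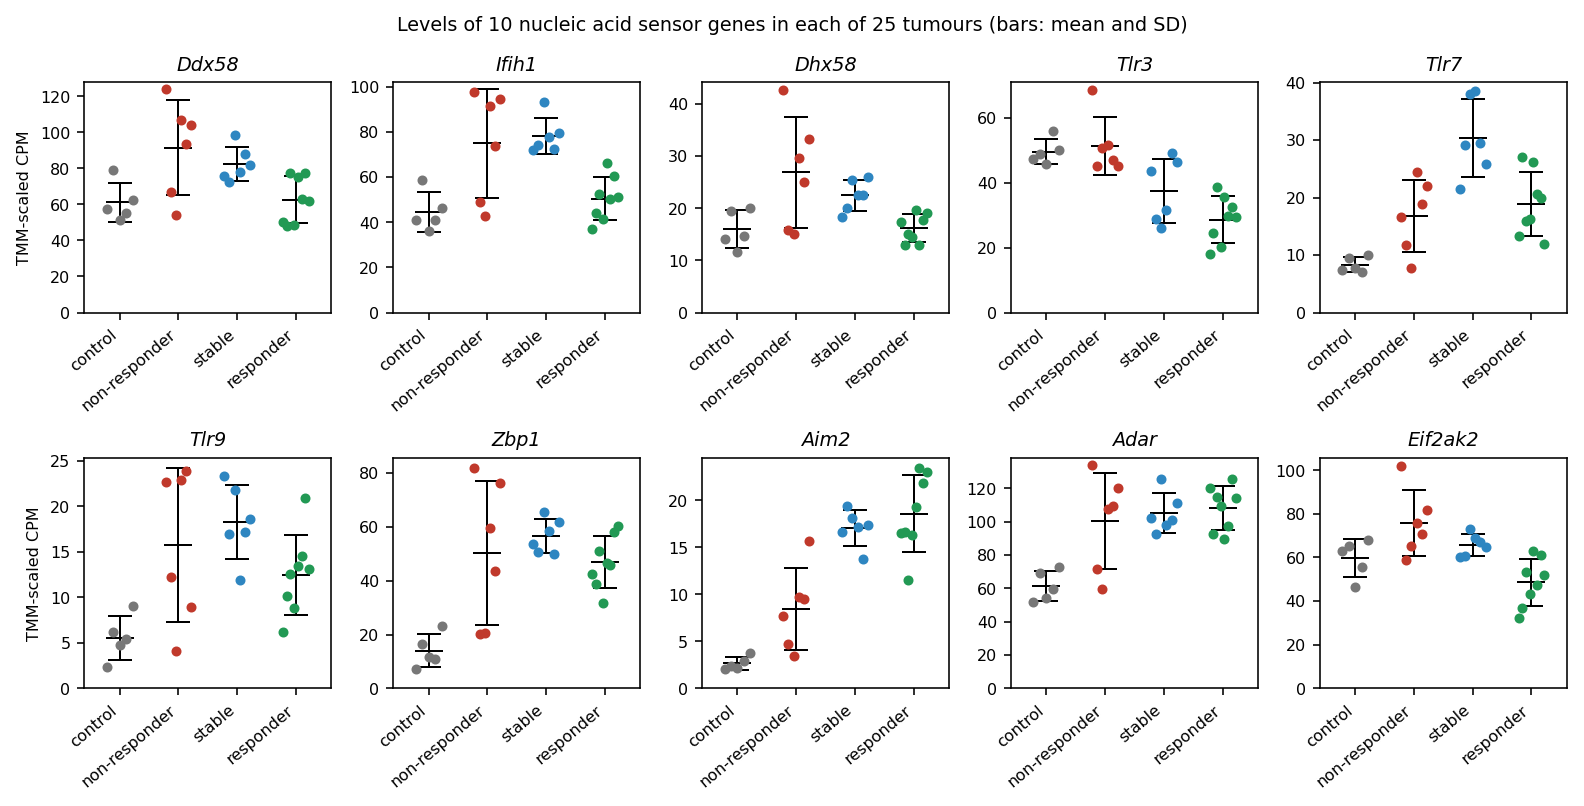
Level of each of the 10 sensor genes (TMM-scaled CPM, linear axis from 0) in each tumour, with 1 point per tumour and bars for the mean and SD of 5 control, 6 non-responder, 6 stable and 8 responder tumours. Controls lie below all stable tumours and all responders for Zbp1, Aim2, Adar and Tlr7, non-responders spread widely, and responders lie below all non-responders for Tlr3.

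The cytosolic helicases were taken first. Ddx58 (chr4:40203773-40239828, minus strand, GRCm38) was measured at 57.6, 79.1, 51.6, 55.1 and 62.4 CPM in controls 1 to 5. In non-responders it was 124, 66.6, 53.9, 107, 93.6 and 104 CPM in the order of tumours 1 to 6. Non-responders 2 and 3 therefore lay within the control range and the other 4 lay above all controls. Stable tumours ran from 72.7 to 98.7 CPM with a median of 80.1, and responders from 48.1 to 77.7 CPM with a median of 62.3. Responders lay below every stable tumour in 5 of 8 cases, and overlapped controls.

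Ifih1 (chr2:62595798-62646255, minus strand) followed Ddx58 closely from tumour to tumour. Its level was 36.2 to 58.8 CPM in controls (median 41.0) and 71.8 to 93.3 CPM in stable tumours (median 76.1). Responders ran from 37.0 to 66.2 CPM (median 50.8), all below the lowest stable tumour. Non-responders were divided again, with 49.0 and 42.8 CPM in tumours 2 and 3 and 97.7, 91.3, 74.0 and 94.6 CPM in tumours 1, 4, 5 and 6. Dhx58 (chr11:100694884-100704271, minus strand), the helicase that lacks signalling domains, was the least abundant of the 3, at 15.0 to 42.6 CPM in non-responders and 12.9 to 19.6 CPM in responders. Dhx58 shares its locus with the antisense gene Dhx58os, which had 281 counts over the 25 tumours against 10003 for Dhx58. The sources used here do not say whether strand was used in counting.

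In responders against non-responders, all 3 helicases were lower. The log2 fold change was -0.54 ± 0.16 for Ddx58 (adjusted p = 0.00817), -0.57 ± 0.17 for Ifih1 (adjusted p = 0.0082) and -0.73 ± 0.19 for Dhx58 (adjusted p = 0.00343). Against stable tumours, Ifih1 was lower, at -0.63 ± 0.17 (adjusted p = 0.0076), while Dhx58 (-0.47 ± 0.19, adjusted p = 0.0501) and Ddx58 (-0.39 ± 0.16, adjusted p = 0.0539) missed the threshold. In stable tumours against non-responders none of the 3 was called, with adjusted p values of 0.425 for Dhx58, 0.611 for Ddx58 and 0.857 for Ifih1. Without responders 1 and 4 the 3 calls against non-responders held, with values of -0.45 for Ddx58, -0.47 for Ifih1 and -0.72 for Dhx58, and Ifih1 against stable tumours was -0.54 (adjusted p = 0.0341). Each of the 3 calls against non-responders was lost in other fits, given below.

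Against controls the helicases differed by group. In non-responders Dhx58 was higher by 0.75 ± 0.21 (adjusted p = 0.0202), Ifih1 by 0.75 ± 0.19 (adjusted p = 0.00957) and Ddx58 by 0.58 ± 0.18 (adjusted p = 0.0333). In stable tumours only Ifih1 was called, higher by 0.81 ± 0.19 (adjusted p = 0.00131). In responders the differences from controls were 0.02 ± 0.20 for Dhx58, 0.04 ± 0.17 for Ddx58 and 0.18 ± 0.18 for Ifih1, with adjusted p values of 0.936, 0.852 and 0.379. These 3 comparisons share the same 5 controls. The calls of Ddx58 and Dhx58 in non-responders were lost when 1 of several tumours was left out. For Ddx58 these were non-responders 1, 4, 5 and 6 and controls 1, 3, 4 and 5, and for Dhx58 they were non-responders 1 and 6 and controls 1, 3 and 4. Over all fits with 1 tumour left out Ddx58 stayed at 0.48 to 0.70 and Dhx58 at 0.57 to 0.87.

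Eif2ak2 and Adar, the enzymes on double-stranded RNA, moved apart. Eif2ak2 (chr17:78852564-78882573, minus strand), the translation-stopping kinase, was 32.1, 36.7, 53.3, 43.4, 62.7, 47.6, 60.9 and 52.1 CPM in responders 1 to 8. It was 60.4 to 73.0 CPM in stable tumours (median 65.9), 58.7 to 102 CPM in non-responders (median 73.4) and 46.6 to 67.8 CPM in controls (median 62.9). Responders were below all stable tumours in 6 of 8 cases and below all non-responders in 6 of 8. Eif2ak2 was lower in responders than in non-responders, at -0.64 ± 0.14 (adjusted p = 0.000879) and than in stable tumours, at -0.43 ± 0.14 (adjusted p = 0.0173). It was not called against controls in responders (-0.29 ± 0.14, adjusted p = 0.0777), stable tumours (0.14 ± 0.15, adjusted p = 0.499) or non-responders (0.34 ± 0.15, adjusted p = 0.144). The value in responders against controls was called lower in 4 alternatives, from -0.33 with RLE size factors (adjusted p = 0.0399) or DESeq2 (adjusted p = 0.0396) through -0.39 with only those groups fitted (adjusted p = 0.0406) to -0.48 without a low-count filter (adjusted p = 0.00936). It was at -0.02 (adjusted p = 0.951) when the protein-coding share entered the fit. Without responders 1 and 4, Eif2ak2 against stable tumours was -0.34 and no longer called (adjusted p = 0.0579), and against non-responders it was -0.54 (adjusted p = 0.00381). The noncoding gene Gm26637 overlaps Eif2ak2 on the other strand, with 404 counts against 31249.

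Adar (chr3:89715022-89753446, plus strand), the RNA editing enzyme, was 51.9 to 72.7 CPM in controls (median 59.7). Its level was 92.7 to 126 CPM in stable tumours (median 102) and 89.8 to 126 CPM in responders (median 112), each without overlap with controls. Non-responders 2 and 3 were at 71.4 and 59.8 CPM, in the control range, and the other 4 at 107 to 134 CPM. Adar was higher than in controls by 0.81 ± 0.15 in responders (adjusted p = 8.92e-05), 0.77 ± 0.16 in stable tumours (adjusted p = 0.000434) and 0.71 ± 0.16 in non-responders (adjusted p = 0.00446). Between the outcome groups it was not called, with 0.11 ± 0.14 in responders against non-responders (adjusted p = 0.551) and 0.04 ± 0.14 against stable tumours (adjusted p = 0.853). Adar overlaps Chrnb2 on the other strand, which had 1046 counts against 45067.

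Of the endosomal receptors, Tlr3 (chr8:45395665-45411080, minus strand) had a pattern of its own. It was 18.1, 24.4, 38.9, 20.1, 35.7, 29.9, 32.4 and 29.6 CPM in responders 1 to 8. Non-responders were at 68.6, 45.1, 50.8, 51.8, 47.0 and 45.2 CPM, and controls at 47.4, 49.0, 45.7, 55.9 and 50.2 CPM. All 8 responders lay below every control and every non-responder. Stable tumours were divided, with 28.8, 26.1 and 31.6 CPM in tumours 2, 3 and 4 and 43.6, 49.2 and 46.3 CPM in tumours 1, 5 and 6. Tlr3 was lower in responders than in non-responders, at -0.84 ± 0.16 (adjusted p = 0.000423) and than in controls, at -0.79 ± 0.17 (adjusted p = 0.00035). Differences of stable tumours from the other groups were not called, at -0.40 ± 0.18 against controls (adjusted p = 0.0827), -0.45 ± 0.18 against non-responders (adjusted p = 0.0857) and -0.39 ± 0.16 for responders against stable tumours (adjusted p = 0.0643). Against controls Tlr3 was called lower in stable tumours with RLE size factors, without a low-count filter, in DESeq2 and in both limma fits given below. Against non-responders it was called lower in stable tumours with the protein-coding share in the fit, in DESeq2 and in both limma fits. For responders against stable tumours none of these settings gave a call. When the protein-coding share of the library entered the fit, Tlr3 in responders against controls was at -0.44 and no longer called (adjusted p = 0.0723). The difference of non-responders from controls was 0.05 ± 0.18 (adjusted p = 0.881). The 2 responders of lowest protein-coding share also had the lowest Tlr3 levels. Without them Tlr3 was lower, at -0.69 against non-responders (adjusted p = 0.00207) and, at -0.63 against controls (adjusted p = 0.00161).

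Tlr7 (chrX:167304929-167330558, minus strand), the single-stranded RNA receptor, was 7.12 to 9.93 CPM in controls (median 7.75). Stable tumours were at 21.4, 29.1, 38.1, 38.5, 29.5 and 25.8 CPM, and responders ran from 11.9 to 27.0 CPM (median 18.2). Non-responders ran from 7.78 to 24.4 CPM (median 17.7). Every stable tumour and every responder was above all controls, and 6 of 8 responders were below all stable tumours. Tlr7 was higher than in controls by 1.87 ± 0.26 in stable tumours (adjusted p = 4.24e-06), 1.19 ± 0.24 in responders (adjusted p = 0.000173) and 1.02 ± 0.25 in non-responders (adjusted p = 0.00744). Stable tumours stood above non-responders by 0.85 ± 0.23 (adjusted p = 0.0171), and lower in responders than in stable tumours, at -0.68 ± 0.22 (adjusted p = 0.0177). Responders and non-responders differed by 0.17 ± 0.22 (adjusted p = 0.535). The higher level in stable tumours over non-responders was not called without non-responder 2, at 0.76 (adjusted p = 0.0519). The lower level in responders was not called without stable tumour 4, at -0.59 (adjusted p = 0.0513), or without responders 1 and 4, at -0.60 (adjusted p = 0.0683). The summed macrophage and monocyte markers also had their highest group median in stable tumours and their lowest in controls, with 2271 CPM and 613 CPM. Responders had a median of 1083 CPM and non-responders 1128 CPM. Their part in the Tlr7 levels was not tested.

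Tlr9 (chr9:106222598-106226883, plus strand), the DNA receptor, was the least abundant sensor per length on average over the 25 tumours. It was 2.37 to 9.05 CPM in controls, 11.9 to 23.4 CPM in stable tumours and 6.25 to 20.9 CPM in responders. Non-responders were at 22.6, 12.2, 4.12, 22.9, 23.8 and 8.90 CPM, the widest spread of the 10 genes within non-responders on a log scale (SD of log2 CPM 1.00). Tlr9 was higher than in controls by 1.72 ± 0.38 in stable tumours (adjusted p = 0.00066), 1.50 ± 0.37 in non-responders (adjusted p = 0.00819) and 1.18 ± 0.36 in responders (adjusted p = 0.00577). No pair of outcome groups was called, with -0.33 ± 0.32 in responders against non-responders (adjusted p = 0.405), -0.54 ± 0.32 against stable tumours (adjusted p = 0.178) and 0.22 ± 0.34 in stable tumours against non-responders (adjusted p = 0.722).

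Zbp1 and Aim2, which lead to cell death pathways, showed the largest group differences per length. Zbp1 (chr2:173206612-173218923, minus strand) was 7.37, 16.5, 11.8, 11.0 and 23.3 CPM in controls. It was 49.8 to 65.4 CPM in stable tumours (median 56.0) and 31.8 to 60.4 CPM in responders (median 46.1), all above the controls. Non-responders 2 and 3, at 20.1 and 20.5 CPM, lay within the control range, while the other 4 ran from 43.6 to 81.9 CPM. Zbp1 was higher than in controls by 2.02 ± 0.32 in stable tumours (adjusted p = 2.49e-05), 1.85 ± 0.32 in non-responders (adjusted p = 0.000659) and 1.75 ± 0.31 in responders (adjusted p = 4.06e-05). Between outcome groups the differences were -0.10 ± 0.27 in responders against non-responders (adjusted p = 0.778), -0.27 ± 0.27 against stable tumours (adjusted p = 0.442) and 0.17 ± 0.29 in stable tumours against non-responders (adjusted p = 0.746), none called.

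Aim2 (chr1:173350879-173466040, plus strand), the cytosolic DNA sensor, was 2.10, 2.36, 2.19, 2.96 and 3.78 CPM in controls. Non-responders were at 7.71, 4.67, 3.44, 9.71, 9.49 and 15.6 CPM. Stable tumours ran from 13.7 to 19.4 CPM (median 17.2) and responders from 11.5 to 23.4 CPM (median 18.0). No control reached the lowest stable tumour or responder, and 7 of 8 responders were above every non-responder. Aim2 was the 1 sensor gene higher in responders than in non-responders, by 1.14 ± 0.24 (adjusted p = 0.00083). Stable tumours exceeded non-responders by 1.01 ± 0.25 (adjusted p = 0.0105), and responders and stable tumours differed by 0.12 ± 0.23 (adjusted p = 0.696). Against controls it was higher by 2.80 ± 0.28 in responders (adjusted p = 9.79e-08), 2.67 ± 0.29 in stable tumours (adjusted p = 8.21e-07) and 1.66 ± 0.28 in non-responders (adjusted p = 0.000551). Without responders 1 and 4 the difference from non-responders was 1.18 (adjusted p = 0.00237). Aim2 shares its annotated span with Cadm3 on the other strand, a gene with 8255 counts against 5510 for Aim2. The mean level of Cadm3 was 8.59 CPM in controls, 13.7 CPM in responders, 22.3 CPM in stable tumours and 24.9 CPM in non-responders. These Cadm3 values are without TMM scaling, whereas the Aim2 levels are scaled, so the units differ. Whether reads of Cadm3 entered the Aim2 counts was not tested.

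**Figure D2:**
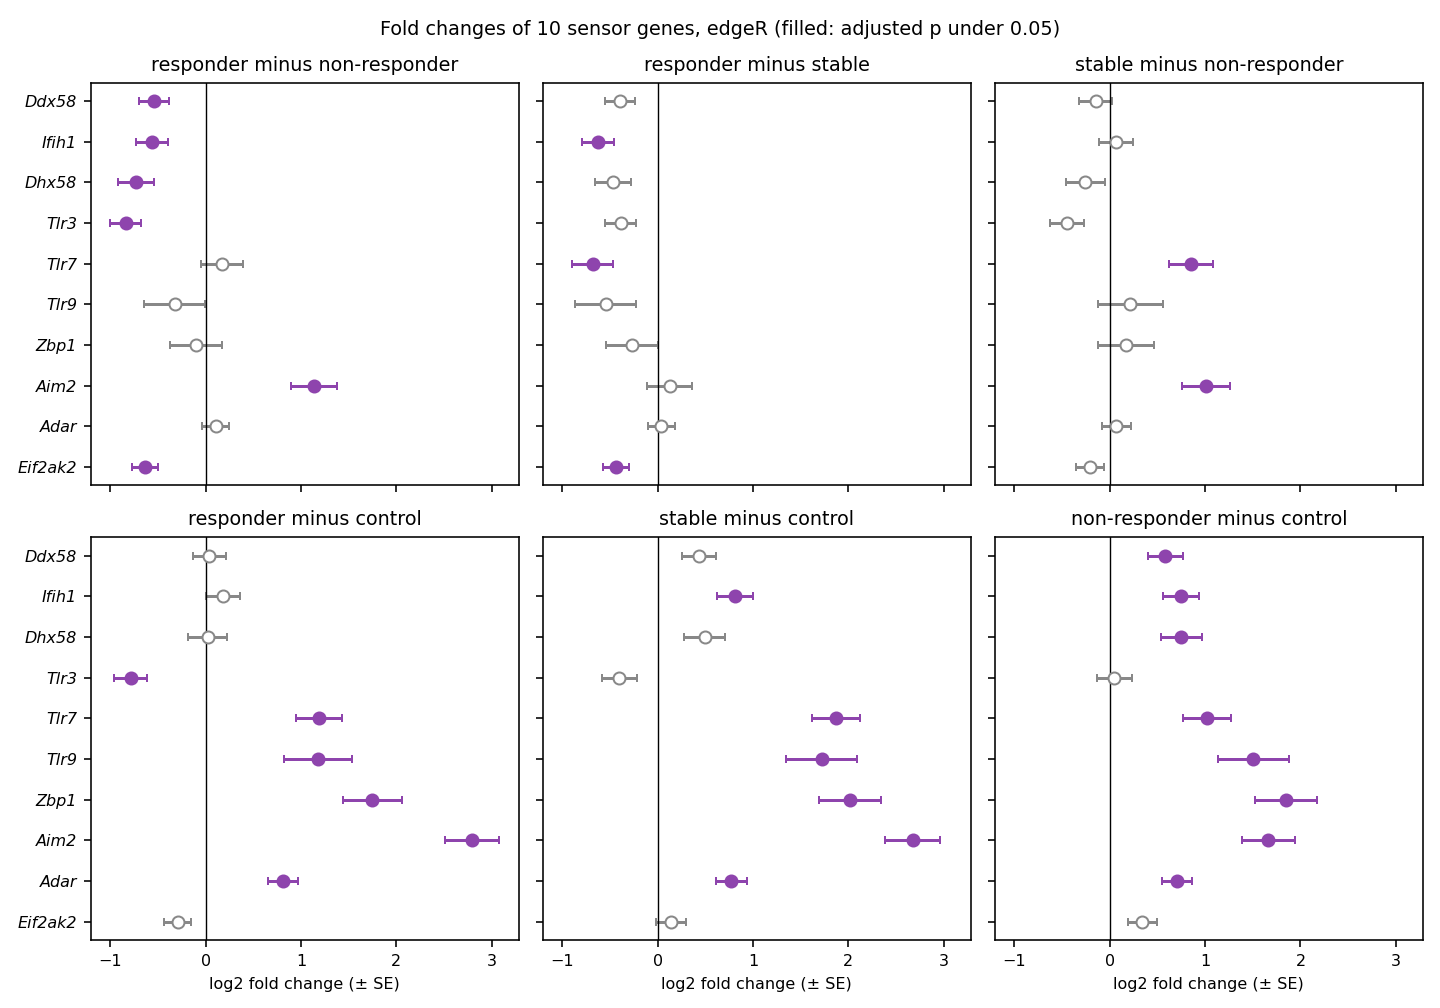
Log2 fold change ± SE of the 10 sensor genes in each of the 6 comparisons between groups (edgeR, all 25 tumours in 1 fit), with filled points for an adjusted p under 0.05. In responders against non-responders Aim2 lies at 1.14 on the higher side and 5 genes are filled on the lower side, down to Tlr3 at -0.84.

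Counted over the 10 genes, responders against non-responders had 1 gene called higher, Aim2, where 25.2% of all genes tested were. The lower calls numbered 5 (Ddx58, Ifih1, Dhx58, Tlr3 and Eif2ak2), where 23.8% of all genes were. The median log2 fold change was -0.43 over the 10 genes and 0.05 over all genes tested. Tlr3 was the 1 sensor gene whose groups did not overlap, against 5.01% of all genes. When the protein-coding share of a library entered the fit as a covariate, Aim2 alone remained called (1 of 10). Ddx58 was then at -0.37 (adjusted p = 0.214), Ifih1 at -0.35 (adjusted p = 0.254), Dhx58 at -0.74 (adjusted p = 0.0571), Tlr3 at -0.51 (adjusted p = 0.0751) and Eif2ak2 at -0.38 (adjusted p = 0.115). The share itself differs with group, so it and the outcome cannot be told apart.

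In responders against stable tumours 3 sensor genes were lower (Ifih1, Eif2ak2 and Tlr7), beside 17.8% of all genes. None was higher, beside 20.5% of all genes, and none was higher at an unadjusted p under 0.05 or in DESeq2. The median was -0.41 over the 10 genes and 0.01 over all genes. Groups did not overlap for Ifih1, against 0.715% of all genes. With that share in the fit edgeR called 0 of the 10 genes, 0 were under an unadjusted p of 0.05, and 0 of all 18031 genes were called. Ifih1 was then at -0.41 (adjusted p = 0.411). DESeq2, without that covariate, called 5 of the 10 lower.

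In stable tumours against non-responders the higher calls were Aim2 and Tlr7 (2 of 10), beside 7.08% of all genes. No sensor gene was lower, beside 7.86% of all genes. Tlr3 was lower at an unadjusted p of 0.0169, and DESeq2 called it lower. The medians were 0.07 over the 10 genes and -0.02 over all genes. No sensor gene had groups without overlap, where 5.01% of all genes did.

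The comparisons with controls share 5 tumours and are given side by side. Responders had 5 higher sensor genes (Zbp1, Adar, Aim2, Tlr7 and Tlr9) beside 36.1% of all genes, and Tlr3 lower (1 of 10) beside 28.9%. DESeq2 called Eif2ak2 lower there too, and the lower call of Tlr3 was lost with the protein-coding share in the fit. Stable tumours had 6 higher (the same 5 genes and Ifih1) beside 22.2% of all genes. No sensor gene was lower in stable tumours, beside 19.6% of all genes, although Tlr3 had an unadjusted p of 0.0385 and was called by DESeq2. Non-responders had 8 higher, all but Eif2ak2 and Tlr3, beside 10.6% of all genes. No sensor gene was lower in non-responders, at an unadjusted p under 0.05 or in DESeq2, beside 3.29% of all genes. The median over the 10 genes was 0.50 in responders, 0.75 in non-responders and 0.79 in stable tumours. Over all genes it was 0.16, 0.04 and 0.02. In responders against controls this median of all genes depended on the fit and on the genes taken. It was 0.04 with protein-coding genes only and 0.46 with DESeq2, where no low-count filter was used. Groups did not overlap with controls for 5 genes in responders (30.0% of all genes), 6 in stable tumours (35.5%) and 0 in non-responders (4.08%). When only non-responders and controls were fitted, 3 of the 10 genes were called.

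Levels of different genes were compared per length, in the RPKM values (reads per kilobase and M reads) that the authors deposited. Over the 25 tumours the mean was highest for Zbp1 (16.0 RPKM), Eif2ak2 (13.2 RPKM), Adar (12.5 RPKM) and Ddx58 (11.9 RPKM). It was lowest for Tlr7 (3.11 RPKM) and Tlr9 (2.34 RPKM). Zbp1 ranked 6 of 10 in controls, at 5.08 RPKM, and 1 in each anti-CTLA-4 group, at 17.8 to 19.8 RPKM. Aim2 went from rank 9 in controls, at 0.983 RPKM, to rank 5 in responders, at 8.12 RPKM. The highest group mean of Aim2 was 8.26 times its lowest, while that of Eif2ak2 was 1.42 times its lowest.

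**Figure D3:**
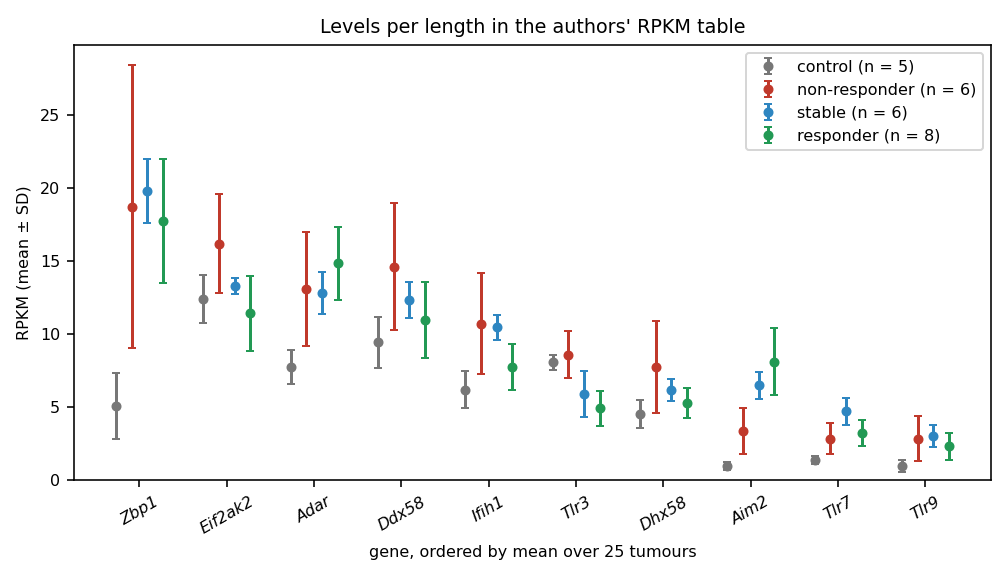
Mean ± SD of the authors' RPKM values for each sensor gene in the 4 groups (linear axis from 0), with genes ordered by their mean over 25 tumours. Zbp1 and Aim2 rise from control levels of 5.08 and 0.983 RPKM, whereas Eif2ak2 keeps group means between 11.4 and 16.2 RPKM.

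Within groups, the sensor genes varied together to different degrees. Pearson's r was computed on log2 CPM over 25 tumours after subtracting each group's mean, as a description, since all values of a tumour share 1 library, its depth and its mix of cells. Over the 45 pairs r ran from -0.06 to 0.94 with a median of 0.60. It was highest for Ddx58 and Ifih1, at 0.94, and lowest for Tlr3 and Aim2, at -0.06. Non-responders had the largest SD of log2 CPM of the 4 groups for 8 of the 10 genes, and over the other 19 tumours the median r was 0.44. Over those 19 tumours r was 0.89 for Ddx58 and Ifih1, 0.86 for Ifih1 and Eif2ak2 and 0.83 for Ddx58 and Eif2ak2. Next came Tlr9 and Zbp1, at 0.75. Dhx58, Zbp1 and Adar formed pairs of 0.84 to 0.86 over 25 tumours and 0.61 to 0.67 over 19. The r of Ddx58 and Aim2 fell from 0.49 to 0.02.

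**Figure D4:**
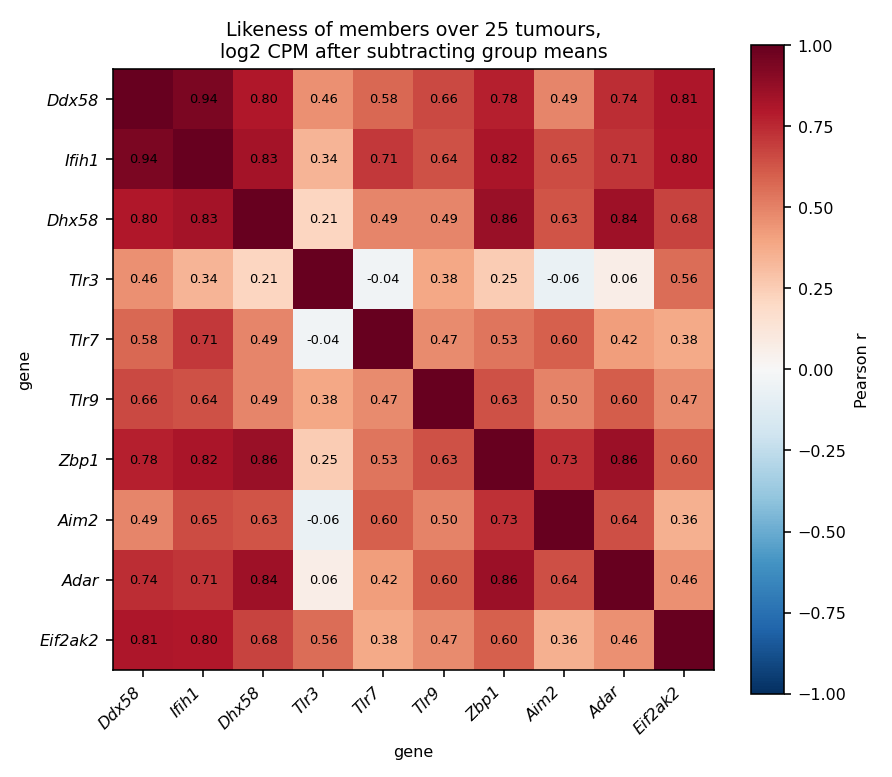
Pearson's r between the 10 sensor genes over 25 tumours, on log2 CPM after subtracting group means (colour scale of r, with a gene on each axis). Ddx58 and Ifih1 have the highest value, 0.94, and the row of Tlr3 the lowest, from -0.06 to 0.56.

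The genes most alike to each sensor were then listed, as the 3 highest r over 25 tumours among 13202 protein-coding genes with a mean of at least 1 CPM. After Ifih1, Ddx58 was most like Rtp4 (0.93) and Ifi44 (0.92). After Ddx58, Ifih1 was most like Rtp4 (0.93) and Oas1a (0.91). Dhx58 was most like Oas1a (0.91), Apol9b (0.89) and Apol9a (0.88), and Eif2ak2 most like Ifit2 (0.90), Rtp4 (0.88) and Cmpk2 (0.85). Adar was most like Oasl2 (0.95), Rnf213 (0.91) and Stat2 (0.91), and Zbp1 most like Gbp5 (0.94), Trim30a (0.91) and Parp14 (0.90). Rtp4, Ifi44, Oas1a, Ifit2 and Cmpk2 are known interferon-stimulated genes, and Trim30a and Parp14 are on the list of interferon response genes used below.

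The genes most alike to the remaining sensors were as follows. Tlr7 was most like Entpd1 (0.90), an enzyme that degrades extracellular ATP, Mpeg1 (0.90), a pore protein of macrophages, and Tlr6 (0.89), a receptor of bacterial lipopeptide. Tlr9 was most like Dnase1l3 (0.90), a secreted DNase, Foxp3 (0.88), the factor of regulatory T cells, and Zeb1 (0.85). Aim2 was most like Tbc1d10c (0.94), Traf3ip3 (0.92) and H2-Q7 (0.91). Tlr3 was most like Slfn9 (0.85), Etv5 (0.85) and Cdh2 (0.83), the last being N-cadherin.

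The rest of the pathway was read from 7 lists with 95 genes. Against non-responders 25.2% of all genes tested were higher in responders and 23.8% lower, and against stable tumours 20.5% and 17.8%, and the counts of each list stand beside these shares. Of 22 other sensors, 1 was higher and 6 lower in responders against non-responders, with a median log2 fold change of -0.19. The lower share was near that of all genes. The called gene lowest among them was Oasl1 at -1.50 ± 0.28 (adjusted p = 0.000312), and the DNA sensor Cgas was lower, at -0.48 ± 0.15 (adjusted p = 0.0141). Of 12 interferon response genes, 6 were lower and the other 6 were not called in that comparison, with a median of -0.53. Cmpk2 was the lowest of them at -1.61 ± 0.24 (adjusted p = 5.96e-05). Against stable tumours 5 of these 12 were lower, led by Bst2 at -0.91 ± 0.22 (adjusted p = 0.00509), and 7 of the 22 other sensors were lower and 1 higher.

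Of 18 adaptors and kinases, 3 were higher and 1 lower in responders against non-responders, and 1 was higher and 7 lower against stable tumours. Both counts against non-responders were below the shares of all genes. Mavs, the adaptor of Ddx58 and Ifih1, was at -0.16 ± 0.09 against non-responders (adjusted p = 0.125) and lower, at -0.28 ± 0.09 against stable tumours (adjusted p = 0.0147). Ticam1, the adaptor of Tlr3, was at 0.13 ± 0.10 and -0.10 ± 0.10 in those comparisons, not called. Unc93b1, which carries Tlr3, Tlr7 and Tlr9 to endosomes, was called higher in stable tumours against non-responders by 0.80 ± 0.23 (adjusted p = 0.0214) and lower in responders than in stable tumours, at -0.63 ± 0.21 (adjusted p = 0.0224). Tlr7 was called with the same signs in both. Myd88, the adaptor of Tlr7 and Tlr9, was lower in responders than in stable tumours, at -0.43 ± 0.17 (adjusted p = 0.0488). Tmem173 (STING), which relays signals of Cgas, was lower in that comparison, at -0.46 ± 0.17 (adjusted p = 0.039).

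Among 10 transcription factors, 2 were higher and 1 lower in responders against non-responders, both below the shares of all genes. The lower one was Irf7, a factor that is itself induced by interferon, at -1.17 ± 0.25 (adjusted p = 0.000901). Its level was 24.9 to 55.2 CPM in responders, 27.5 to 53.2 CPM in controls, 42.0 to 66.5 CPM in stable tumours and 27.6 to 140 CPM in non-responders, so that responders and controls overlapped. Irf3, the factor activated by Mavs and STING, was higher by 0.35 ± 0.10 (adjusted p = 0.00923).

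Of 12 effectors of Zbp1, Aim2 and Eif2ak2, 3 were higher and 2 lower in responders against non-responders, shares near or below those of all genes. Il1b, a cytokine released after inflammasome activation, was the highest, at 1.52 ± 0.46 (adjusted p = 0.00961), and it was higher in stable tumours against non-responders as well, at 2.14 ± 0.49 (adjusted p = 0.00645). Eif2s1, which encodes the substrate of PKR, was the lowest at -0.67 ± 0.17 (adjusted p = 0.00359). Ripk3, the kinase downstream of Zbp1, was higher by 0.54 ± 0.20 (adjusted p = 0.0262), and Mlkl, its pore-forming substrate, was lower, at -0.37 ± 0.14 (adjusted p = 0.0294). Of 8 tested genes for nucleic acid removal and editing, 3 were higher and 3 lower. They included the triphosphohydrolase Samhd1, higher by 0.71 ± 0.22 (adjusted p = 0.0106), and the DNase Trex1, lower, at -0.79 ± 0.26 (adjusted p = 0.0164).

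Of 11 interferon genes and receptors, 5 passed the low-count filter. Their log2 fold changes in responders against non-responders, from 0.02 to 0.34 with a median of 0.11, did not pass the threshold. Ifnb1, an interferon that some of these sensors are known to induce, had 13 counts over all 25 tumours and none in responders. Controls had 4 counts of Ifnb1, non-responders 4 and stable tumours 5. The limit that 0 counts allow in responders is 0.0251 CPM (3 counts over 119 M, counting error only). This limit is per M counts without TMM scaling, unlike the CPM values above. Ifna1, Ifna2, Ifna4, Ifnl2 and Ifnl3 had no counts in any tumour, which allows up to 0.00626 CPM, also without TMM scaling, over all tumours pooled. Ifng had 28 counts over the controls, 441 over the responders, 716 over the stable tumours and 395 over the non-responders.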

How the data were processed

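RNA from 25 B2905 tumours was sequenced, 1 library each. The labels name a stranded total RNA kit and polyA RNA as the molecule, and this was not resolved. Per the submitters' processing notes, bcl2fastq 2.17, Trimmomatic, STAR 2.5.1 and RSEM 1.2.22 were used with mm10. The authors deposited estimated counts (expected counts) per gene, not normalized, of which 5.64% were not whole. They were rounded here. The authors also deposited RPKM values for 19522 symbols, whose gene lengths and denominator no source used here gives. The 55450 gene identifiers were those of GENCODE M21 (GRCm38), which gave coordinates and gene types.

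The count model was edgeR 4.0.16 (R 4.3.3). Of the genes, 18031 passed filterByExpr by group, and libraries were scaled by TMM and fitted with 4 group means over all 25 tumours. Robust quasi-likelihood F tests, two-sided, were adjusted by Benjamini-Hochberg over all tested genes. The steps were tested on simulated counts of all tested genes, with 200 genes changed. Of 2-fold changes, 50% were recovered in responders against non-responders and 54% against stable tumours. In stable tumours against non-responders 43% were recovered. Of 4-fold changes, 81 to 82% were recovered. The data had far more calls than the simulation had changed genes, with 8823, 6891 and 2693 genes called in these comparisons. An adjusted p of 0.05 then stands for a less strict unadjusted p, so these shares do not give the recovery in the data. A gene that was not called may still differ. Each library was a separate tumour with its own identifier in its title. Replicate numbers are names in record order and pair nothing. No pair of replicates was a duplicate, with a smallest chi-square per gene of 17.1. Log2 CPM used a prior count of 2. RPKM was tested with limma 3.58.1 on log2(RPKM + 1) or log2(RPKM + 0.1), for genes with a mean of at least 0.1. Also tried were RLE size factors, DESeq2 1.42.0, no filter, a stricter filter (1 CPM in 8 tumours, mean count 50), only the groups compared, the protein-coding share as a covariate, protein-coding genes only, and leaving out each tumour. Leaving out the 2 tumours of lowest protein-coding share was chosen after seeing the data. The 10 genes and all lists were chosen with earlier results of these data known. By the rule for names, all 10 genes, 12 pathway genes and the highest and lowest called gene of a list could be named, except 1 that is not reported here. Depth limits precision through 8.76 to 34.3 M counts per library.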

Additional observations from a re-analysis of the deposited data

Results flagged for a closer look

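Tlr3 in non-responder 1 was at 68.6 CPM, far above the 45.1 to 51.8 CPM of the other 5 non-responders. The gap to the nearest tumour was 0.667 of the group's range. It was 1 of 40 tests of a gene in a group, and chance flags about 1 in 20 groups. Without that tumour Tlr3 in non-responders against controls was -0.05 in place of 0.05, uncalled both times.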

How the results depend on the processing

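No paired analysis was possible because each library was a separate tumour and the labels give no pairing between groups. Responders against non-responders had 6 sensor genes called, 1 with protein-coding share in the fit (the covariate below) and 3 with limma on log2(RPKM + 0.1). In that limma fit Ddx58 (-0.38, adjusted p = 0.0705), Dhx58 (-0.46, adjusted p = 0.056) and Ifih1 (-0.42, adjusted p = 0.0514) were not called. With limma on log2(RPKM + 1) Ddx58 (adjusted p = 0.0674) and Dhx58 (adjusted p = 0.0503) were not called. Responders against stable tumours had 3 called, 5 without a low-count filter, 5 with only those groups fitted, 5 with DESeq2, 0 with the covariate, 1 with limma on log2(RPKM + 0.1) and 1 without responders 1 and 4. Non-responders against controls had 8 called and 3 with only those groups fitted. Leaving out 1 tumour gave 6 to 6, 2 to 6 and 6 to 8 calls in these comparisons, 1 to 3 in stable tumours against non-responders, 6 to 7 and 6 to 8 in responders and stable tumours against controls, and 10 to 10 over the 4 groups. The cause of these changes was not tested. The calls in responders against stable tumours numbered 5 without responder 3, non-responder 1, 2 or 3 or control 2, and 6 without responder 5; stable tumours against non-responders kept 1 without non-responder 2.

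Signs turned only for values that were not called. In responders against non-responders, Zbp1 was at 0.076 and 0.092 in limma with the larger and smaller pseudocount and ran from -0.26 to 0.093 with 1 tumour left out. Adar was at -0.036 there with the covariate and ran from -0.0064 to 0.21 with 1 tumour left out. In responders against stable tumours Adar was at -0.0089 without a filter, -0.11 with the covariate and -0.0036 without responders 1 and 4. In stable tumours against non-responders, leaving out 1 tumour gave Ifih1 -0.056 to 0.15 and Adar -0.044 to 0.17. In responders against controls Dhx58 was at -0.012 with RLE factors, -0.16 without a filter, -0.074 with only those groups and -0.016 in DESeq2, and ran from -0.082 to 0.10 with 1 tumour left out. Ddx58 was there at -0.15 without a filter, -0.061 with only those groups and -0.0011 in DESeq2, and ran from -0.024 to 0.14 with 1 tumour left out, while Ifih1 was at -0.0017 without a filter. Without a filter Eif2ak2 in stable tumours against controls was at -0.00019, and Tlr3 in non-responders against controls at -0.048, with -0.050 to 0.095 when 1 tumour was left out. The DESeq2 median of all genes was 0.27, 0.19 and 0.46 in responders against non-responders, stable tumours and controls. It was taken over every gene with counts, not only the 18031 past the filter, so the sets of genes differ.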

Other observations

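Markers of other cell types stood beside the sensor genes as follows. The summed level of 5 B cell markers, a cell type known for Tlr7 and Tlr9, was 1.14 to 3.31 CPM in controls, 2.96 to 14.1 CPM in non-responders, 7.44 to 14.6 CPM in stable tumours and 1.12 to 29.1 CPM in responders. The 7 plasmacytoid dendritic cell markers, another such type, summed to 257 to 342 CPM in controls and 147 to 286 CPM in responders. The sum and the single markers differed in direction, since 3 of these 7 markers were called higher and 1 lower in responders against controls, with a median log2 fold change of 0.67. The 4 endothelial markers were all lower in responders than in non-responders, with a median log2 fold change of -1.43, and summed to 42.8 to 104 CPM in responders against 135 to 265 CPM in non-responders. Neutrophil markers (5 genes) summed to 2.63 to 4.88 CPM in controls, with Ly6g at 0 counts, and to 27.0 to 67.0 CPM in responders.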
